A study of Mus musculus with 9 samples.

Results

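The epithelial-type genes described here were Perp, Cdh17, Krt7, Krt19, Krt8, Krt18 and Aqp5, 7 of the 47729 genes in the expression table of cultured mouse synovial fibroblasts. They were chosen by name with their values in injected against naive cultures known, so their higher levels after crystal injection are given as a description, and the calls they received in those comparisons are no independent evidence. In the table, 5 of the 7 fitted the description "raised": Perp, Cdh17, Krt7, Krt19 and Aqp5 stood above every naive library in all 6 injected libraries. Krt8 and Krt18 did not. Both lay near the bottom of the scale in all 9 libraries and overlapped between groups, so the set is called epithelial-type genes here by the names on the list and not by a shared behaviour.

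The cultures came from collagenase-digested paws of wild-type BALB/c mice, and monosodium urate (MSU) crystals, the crystals of gout, were what the injected paws had received. Primed cultures (3 libraries) were grown from the left paw, which had received crystals both at day 0 and at day 9. Non-primed cultures (3 libraries) were grown from the right paw, which had received them at day 9 alone. Naive cultures (3 libraries) came from paws without crystals. All cells were cultured for 5 passages, and the labels place RNA extraction at day 18 for every group, naive included. Paw side and priming cannot be told apart. The labels name no animal behind a library and do not give the age of the mice, and the series text says that a primed and a non-primed culture may share a mouse, so a p-value here speaks of the spread among these libraries, which may be technical.

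The values are rlog values, regularised log2 values that the authors made from read counts. They are scaled for library depth, the depth itself is unknown, and the values of genes with few reads are drawn towards the mean of the gene, so that differences of weakly expressed genes are understated. An exact 0 in every library, as 19972 genes had, marks a gene without any variation. It is not to be read as a level above the negative values of other genes. Naive libraries spread most, with a median SD between replicates of 0.14 in primed, 0.10 in non-primed and 0.22 in naive libraries over the 15623 genes tested. In a bulk library, fewer cells of a type and less RNA per cell cannot be told apart.

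Epithelial sheets are held together by desmosomes, adherens junctions and tight junctions. Keratins are the intermediate filaments of epithelial cells and form obligate pairs of a type I and a type II chain: Krt18 and Krt19 encode type I chains, Krt7 and Krt8 type II chains, and Krt8 with Krt18 is the usual pair of simple epithelia. Fibroblasts normally rely on vimentin filaments and N-cadherin in their place. Perp encodes a desmosome-associated membrane protein that is a target of p53 and p63. Cdh17 encodes liver-intestine cadherin, a cadherin with a short cytoplasmic tail best known from the intestine, and Aqp5 encodes the water channel of salivary, lacrimal, sweat and lung epithelium.

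Among the junction genes, Perp (ENSMUSG00000019851, chromosome 10, 18845020 to 18857073, plus strand, GRCm38, GENCODE M21) had the highest level of the set. Its rlog value was 8.92, 8.54 and 8.86 in primed libraries 1 to 3, 9.49, 9.10 and 8.96 in non-primed libraries 1 to 3, and 7.81, 7.16 and 7.39 in naive libraries 1 to 3. Every injected library lay above every naive one, with 0.73 log2 units between the lowest injected and the highest naive value, and every primed library lay below every non-primed one. Perp averaged 8.77 ± 0.21 in primed, 9.18 ± 0.27 in non-primed and 7.45 ± 0.33 in naive libraries (SD, n = 3 each). The difference from naive libraries was 1.32 for primed and 1.73 for non-primed libraries (standard error, SE, 0.20 each), equal to 2.49-fold and 3.31-fold on the rlog scale.

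Cdh17 (ENSMUSG00000028217, chromosome 4, 11758147 to 11817895, plus strand) had rlog values of 7.05, 7.23 and 7.49 in primed libraries, 7.78, 7.49 and 7.60 in non-primed libraries and 6.46, 6.29 and 5.95 in naive libraries. As for Perp, the injected libraries lay above the naive ones without overlap, here by at least 0.59 log2 units. Its mean was 7.26 ± 0.22 in primed, 7.62 ± 0.15 in non-primed and 6.23 ± 0.26 in naive libraries (SD, n = 3 each). That made Cdh17 higher than naive by 1.02 in primed and by 1.39 in non-primed libraries (SE 0.18 each). Primed and non-primed libraries also did not overlap at the precision of the deposited values, although primed 3 and non-primed 2 both read 7.49 when rounded.

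The keratins fell into 2 pairs by level. Krt7 (ENSMUSG00000023039, chromosome 15, 101411043 to 101430313, plus strand) had rlog values of 4.51, 5.40 and 5.37 in primed libraries, 5.66, 5.71 and 5.89 in non-primed libraries and 4.21, 3.95 and 3.94 in naive libraries. Primed 1 stood apart from the other 2 primed libraries and only 0.30 log2 units above naive 1, the highest naive library. The mean of Krt7 was 5.09 ± 0.51 in primed, 5.75 ± 0.12 in non-primed and 4.03 ± 0.15 in naive libraries (SD, n = 3 each), and the difference from naive was 1.06 for primed and 1.72 for non-primed libraries (SE 0.24 each). An antisense gene is annotated across Krt7, and the strand setting of the counting is not given in the sources used here, so reads from the 2 genes may not have been told apart.

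Krt19 (ENSMUSG00000020911, chromosome 11, 100140810 to 100148665, minus strand), the type I keratin that lacks most of the usual tail domain, had rlog values of 3.90, 4.55 and 4.08 in primed libraries, 4.17, 4.91 and 4.40 in non-primed libraries and 3.49, 3.36 and 3.64 in naive libraries. The injected libraries again lay above the naive ones, by at least 0.25 log2 units, while primed and non-primed libraries overlapped as groups. Means were 4.17 ± 0.34 in primed, 4.49 ± 0.38 in non-primed and 3.50 ± 0.14 in naive libraries (SD, n = 3 each). The difference from naive, 0.68 for primed and 1.00 for non-primed libraries (SE 0.23 each), was the smallest among the 5 genes that stood above naive.

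Krt8 and Krt18, the usual simple-epithelial pair, showed no such pattern. Krt8 (ENSMUSG00000049382, chromosome 15, 101996698 to 102004482, minus strand) lay between -1.83 and -1.82 in primed, between -1.83 and -1.80 in non-primed and between -1.84 and -1.79 in naive libraries. Krt18 (ENSMUSG00000023043, chromosome 15, 102028180 to 102032027, plus strand) had rlog values of 0.56, 0.55 and 0.83 in primed libraries, 0.55, 0.60 and 0.65 in non-primed libraries and 0.63, 0.68 and 0.96 in naive libraries. The groups overlapped for both genes, and the highest Krt18 value was that of naive 3. Of the 27757 genes that varied at all, only 11.6% had a lower mean than Krt8 and 30.0% a lower mean than Krt18. Both were below the minimum mean rlog of 3 and were not tested, and at such levels the rlog shrinkage leaves little room for a difference to show, so a change in either gene would hardly be detectable.

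**Figure D1:**
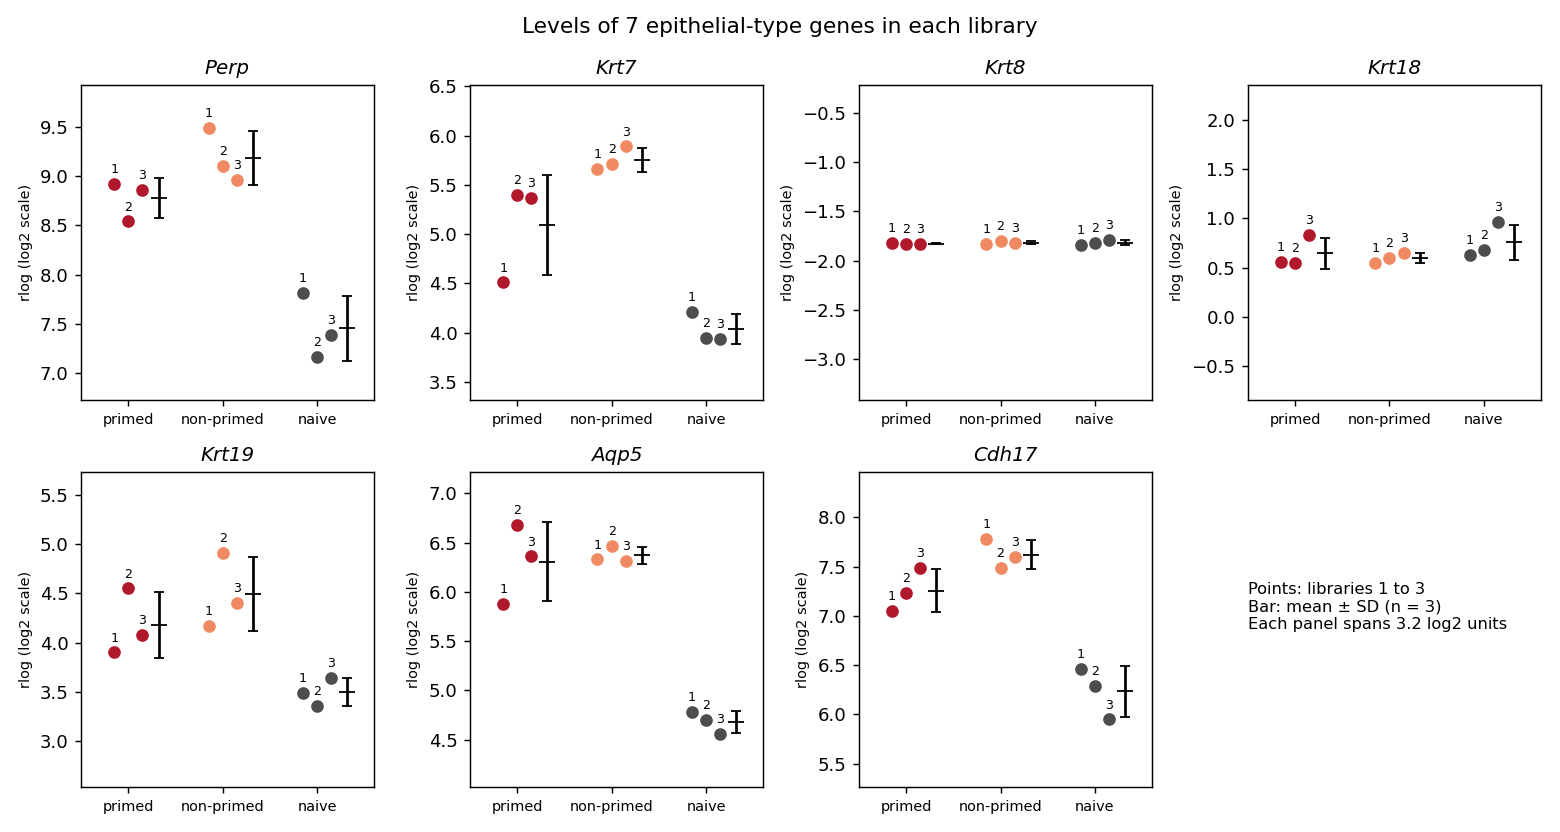
Level of each of the 7 genes (rlog, log2 scale) in primed, non-primed and naive libraries, 1 point per library with its number, and the mean ± SD (n = 3) as a bar. Perp, Krt7, Krt19, Aqp5 and Cdh17 lie above the naive libraries in all 6 injected ones, with gaps of 0.73, 0.30, 0.25, 1.10 and 0.59 log2 units, while Krt8 and Krt18 overlap between groups.

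Krt7, Krt8 and Krt18 lie in the same keratin cluster of chromosome 15 (101347444 to 102032027), which holds the type II keratins and, at its end, the type I gene Krt18. Of the 26 protein-coding keratin genes of this interval in the table, 3 reached the minimum mean for testing, namely Krt80, Krt7 and Krt75. A further 8 were at 0 in every library, and none of the 23 untested keratins exceeded 3.13 in any library. Krt7 was thus the most highly counted keratin of the cluster, with a mean rlog of 4.96 over 9 libraries against 4.11 for Krt75 and 3.61 for Krt80, although these values are not corrected for gene length.

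**Figure D2:**
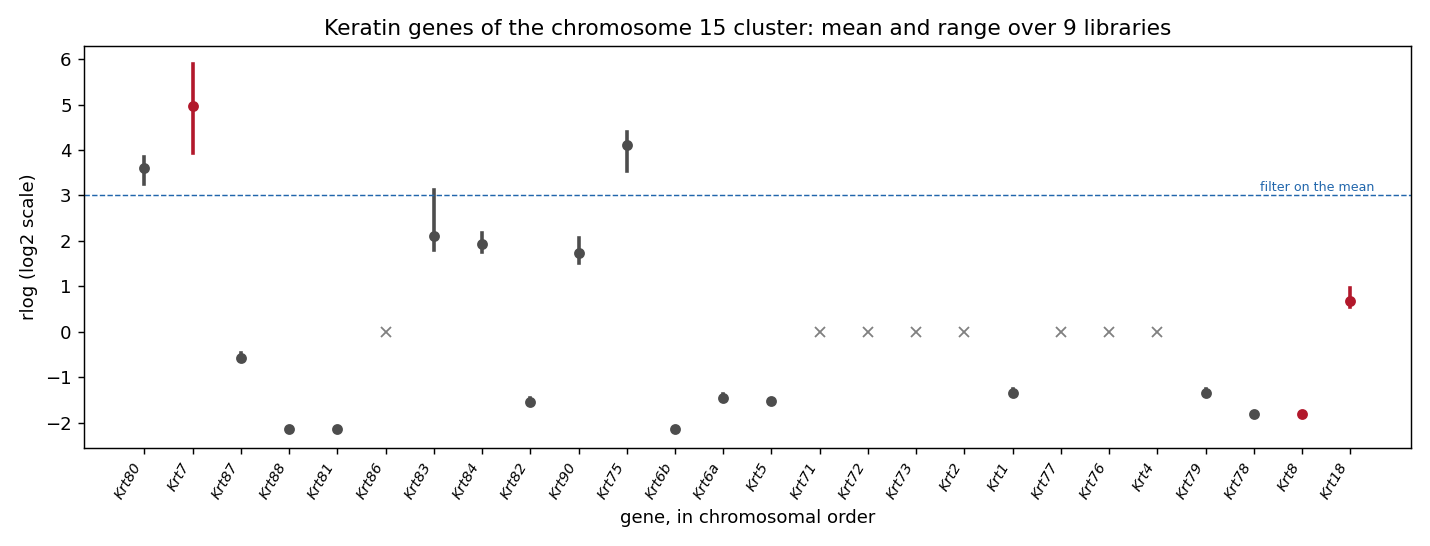
Mean (point) and range over the 9 libraries (line) of the rlog value of each keratin gene in the chromosome 15 cluster, in chromosomal order, with Krt7, Krt8 and Krt18 in red and genes at 0 in all libraries as crosses. Only Krt80, Krt7 and Krt75 have a mean above the dashed line at 3, and the range of Krt7 runs from 3.94 to 5.89.

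Aqp5 (ENSMUSG00000044217, chromosome 15, 99590782 to 99594829, plus strand) separated the groups most widely. It had rlog values of 5.88, 6.68 and 6.36 in primed libraries, 6.33, 6.47 and 6.31 in non-primed libraries and 4.78, 4.70 and 4.56 in naive libraries. The lowest injected library, primed 1, was 1.10 log2 units above the highest naive library, and primed and non-primed libraries overlapped. Means were 6.31 ± 0.40 in primed, 6.37 ± 0.09 in non-primed and 4.68 ± 0.11 in naive libraries (SD, n = 3 each). Aqp5 was thereby 1.63 higher in primed and 1.69 higher in non-primed than in naive libraries (SE 0.20 each), 3.09-fold and 3.23-fold on the rlog scale.

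Among all genes tested, 4 of the 5 tested members (Perp, Krt7, Aqp5 and Cdh17) lay past an adjusted p of 0.05 in non-primed against naive libraries (limma with Benjamini-Hochberg adjustment), where 0.115% of the 15623 genes were called higher and 0.141% in either direction. In primed against naive libraries 1 of the 5, Aqp5, did so, where 0.096% were called higher and 0.102% in either direction. All 5 lay above naive without overlap in both comparisons, as did 11.6% of the tested genes for non-primed, 8.97% for primed and 6.13% for all 6 injected libraries at once. Since the members were chosen from these comparisons, nothing is read from their counts. The 2 comparisons share the naive libraries. All 5 had a naive mean above the filter of 3, so none entered the test only through its injected libraries. The calls hung on single libraries: no member was called in either comparison when any 1 non-primed library, primed 2 or primed 3 was left out, yet the differences themselves stayed between 0.79 and 1.91 for non-primed and between 0.49 and 1.84 for primed against naive over all 9 omissions. In primed against naive libraries the omission of primed 1 added Krt7 to the calls, that of naive 1 or naive 3 added Perp, and that of naive 2 added Perp and Cdh17. Under a replicate block, Perp alone was called in non-primed libraries (adjusted p = 0.0403 in limma), with Aqp5 at 0.0501 and Krt7 and Cdh17 at 0.0647 each, and Perp and Aqp5 were called in primed libraries. That block joins all 9 libraries by number, although naive numbers showed no pairing.

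Whether a second injection changed these genes further was asked by comparing primed with non-primed cultures, a contrast that shares libraries with those the choice rested on. All 5 tested members were lower in primed libraries, but none of the 15623 genes was called (0%, limma with Benjamini-Hochberg adjustment, smallest adjusted p = 1), and 197 had an unadjusted p below 0.05. Krt7 differed most, by -0.66 (95% interval -1.21 to -0.12, unadjusted p = 0.0226 and adjusted p = 1 in limma). The difference was -0.41 (95% interval -0.87 to 0.06) for Perp and -0.37 (95% interval -0.78 to 0.04) for Cdh17. It was -0.32 (95% interval -0.84 to 0.21) for Krt19 and -0.06 (95% interval -0.52 to 0.40) for Aqp5. Of the 5 intervals, only that of Krt7 did not include 0. Between primed and non-primed libraries of the same number, Perp, Krt7, Krt19 and Cdh17 were lower in the primed library in 3 of 3 pairs and Aqp5 in 1 of 3. The share of all tested genes with 3 of 3 such pairs, or with primed below non-primed libraries without overlap, was not counted. Nothing is therefore read from either pattern in the members. For Krt19 the differences within pairs were -0.28, -0.36 and -0.32, although its groups overlapped. A block on these 6 libraries alone, an alternative chosen after seeing the data, gave an adjusted p of 0.502 for Krt19 in limma. Without primed 1 the differences were -0.37 for Krt7 and 0.15 for Aqp5, whose direction thus turned. With limma's array weights Perp (-0.56, adjusted p = 0.0237) and Cdh17 (-0.30, adjusted p = 0.0489) were called lower, along with 2109 genes in all.

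**Figure D3:**
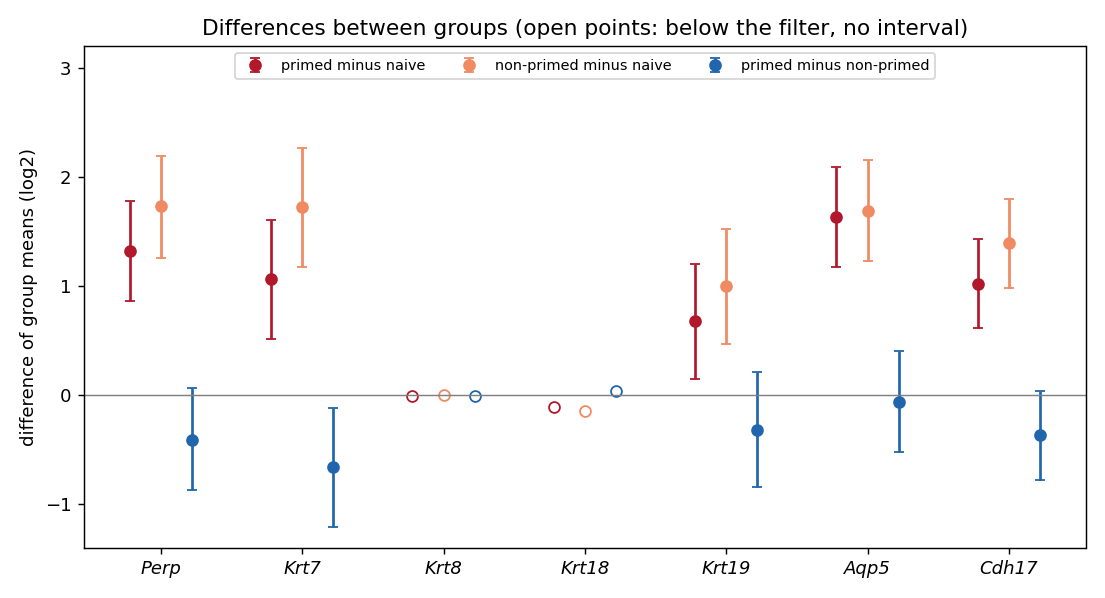
Difference of group means (log2) for each gene in primed minus naive (dark red), non-primed minus naive (orange) and primed minus non-primed (blue), with the 95% interval of the limma fit, and open points without an interval for the untested Krt8 and Krt18. The differences from naive run from 0.68 to 1.73 for the 5 tested genes, and in primed minus non-primed only the interval of Krt7 does not include 0.

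Levels can be set side by side between genes only per length, here as the mean rlog value minus log2 of the exon length in kb (all exons of the gene in GENCODE M21). On this scale the non-primed order was Perp (8.22), Cdh17 (5.46), Aqp5 (4.99), Krt19 (3.60), Krt7 (2.93), Krt18 (0.08) and Krt8 (-2.79). The primed order was the same, at 7.81, 5.10, 4.93, 3.28, 2.27, 0.13 and -2.80, and so was the naive order, at 6.49, 4.07, 3.30, 2.61, 1.21, 0.24 and -2.79. Cdh17 and Aqp5 were closer to each other in primed libraries than the SD of 0.40 of Aqp5. The places of Krt19 and Krt7 depended on the gene model: with the principal transcript, Krt19 was at 3.83 and Krt7 at 3.72 in non-primed libraries, less than the SD of 0.38 of Krt19.

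The promoters of Aqp5 and Krt7, which stood higher in injected libraries, and of Krt8 and Krt18, which did not, are shown to compare their letters. The RefSeq table on GRCm38.p6 held 4 of the 7 members. Each window runs from 250 bases before the RefSeq start of the gene to 50 bases after it, written along the gene's strand, and capitals mark motif matches on either strand. The RefSeq starts lie inside the GENCODE genes whose coordinates are given above, 1360 bases from the GENCODE start for Krt7, 246 for Aqp5, 140 for Krt8 and 36 for Krt18, so the Krt7 window holds no base before the GENCODE start. The GC box was searched as GGGCGG. The E-box was searched as CACGTG and the core of the hypoxia response element, which also lies inside the E-box, as ACGTG. The TATA box was searched as TATAAA and the AP-1 site as TGANTCA.
Aqp5, chr15:99590778-99591077, plus strand: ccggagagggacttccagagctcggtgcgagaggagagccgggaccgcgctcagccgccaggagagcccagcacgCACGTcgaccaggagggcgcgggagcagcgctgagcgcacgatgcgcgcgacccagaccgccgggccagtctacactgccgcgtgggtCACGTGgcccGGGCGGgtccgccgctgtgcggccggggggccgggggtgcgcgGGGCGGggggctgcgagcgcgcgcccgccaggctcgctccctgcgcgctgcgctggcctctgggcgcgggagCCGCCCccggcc
Krt7, chr15:101412153-101412452, plus strand: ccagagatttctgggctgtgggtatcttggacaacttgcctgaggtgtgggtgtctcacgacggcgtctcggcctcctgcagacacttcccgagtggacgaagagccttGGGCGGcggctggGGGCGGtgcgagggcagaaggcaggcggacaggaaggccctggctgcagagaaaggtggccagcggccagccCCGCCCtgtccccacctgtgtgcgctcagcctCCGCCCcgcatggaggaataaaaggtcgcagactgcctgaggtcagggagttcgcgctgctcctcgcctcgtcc
Krt8, chr15:102004293-102004592, minus strand: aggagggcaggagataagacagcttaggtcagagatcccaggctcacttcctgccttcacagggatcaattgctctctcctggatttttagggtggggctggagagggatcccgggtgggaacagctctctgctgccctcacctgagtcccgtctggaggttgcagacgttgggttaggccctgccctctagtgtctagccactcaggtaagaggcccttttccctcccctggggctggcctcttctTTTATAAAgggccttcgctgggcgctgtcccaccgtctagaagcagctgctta
Krt18, chr15:102027966-102028265, plus strand: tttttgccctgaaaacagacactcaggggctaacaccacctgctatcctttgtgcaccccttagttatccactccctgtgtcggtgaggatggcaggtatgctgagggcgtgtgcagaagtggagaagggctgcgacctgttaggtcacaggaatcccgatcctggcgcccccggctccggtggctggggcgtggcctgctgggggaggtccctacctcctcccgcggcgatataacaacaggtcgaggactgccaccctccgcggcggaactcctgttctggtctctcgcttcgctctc

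Aqp5 and Krt7 both held GC boxes, which 35.7% of 32851 promoter windows hold. Those of Aqp5 began 77 and 34 bases before and 38 bases after the RefSeq start, and those of Krt7 began 141, 128, 56 and 24 bases before it. Aqp5 alone among the 4 held an E-box, 87 bases before the start, which 7.15% of windows hold, and another ACGTG match on the reverse strand 175 bases before it, a core found in 19.6% of windows. Krt8 held a TATA box, overlapping on both strands within 3 bases of the start, as 13.6% of windows do, and Krt18 held none of the 5 motifs. No window held the AP-1 letters, which 7.81% of all windows do. The windows of Aqp5 and Krt7 had more G and C (79.7% and 66.3%, against a median of 52.7%) and more CG pairs (46 and 21, against a median of 7) than those of Krt8 (58.0%, 6 pairs) and Krt18 (61.3%, 17 pairs). Krt18 too lay above the median in both. A match or a share of G and C describes these letters only, and none of the motifs was tested for binding. Whether the letters have a part in the levels was not tested, and a change in Krt8 or Krt18 would hardly be detectable.

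Genes around the members were looked up within 250 kb. No tested neighbour of any member was called in either comparison with naive. Around Aqp5, 14 tested neighbours differed from naive by between -0.31 and 0.14 in primed and between -0.36 and 0.29 in non-primed libraries. Around Krt7, the 7 tested neighbours differed by between -0.27 and 0.30 in primed and between -0.32 and 0.46 in non-primed libraries. Perp had 2 tested neighbours. Tnfaip3, which encodes the NF-kB inhibitor A20, differed by 0.20 in primed and by 0.01 in non-primed libraries. The other, Arfgef3, which lies 101.1 kb away and is named here after its values were seen, had rlog values of 5.84, 6.08 and 5.64 in primed, 5.68, 6.08 and 6.05 in non-primed and 4.07, 4.96 and 4.29 in naive libraries. Its groups did not overlap with naive, and its differences of 1.41 (SE 0.25, adjusted p = 0.0864) and 1.50 (SE 0.25, adjusted p = 0.0604, limma) were near those of Perp without passing the threshold.

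No other epithelial gene on the lists passed the test. Over 8 related lists with 144 genes, 74 were tested and 0 were called in any of the 3 comparisons (limma with Benjamini-Hochberg adjustment). At an unadjusted p below 0.05 there were 4 (5.41%) in primed and 5 (6.76%) in non-primed against naive, where 16.9% and 15.4% of all tested genes were. The lists were drawn up with the members known, and no list was tested as a set. Across all tested genes the median difference from naive was -0.001 for primed and 0.009 for non-primed libraries.

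Of the 20 other keratins, 2 were tested, and Krt80, an epithelial type II keratin, had the larger difference, 0.30 in primed (SE 0.13) and 0.24 in non-primed libraries (SE 0.13). Krt10, the other, differed by -0.06 and -0.09. The desmosome and keratin linker list, the structures that Perp associates with, had a median difference of -0.20 in primed and -0.18 in non-primed libraries over 6 of 15 genes. Dsp, the desmoplakin that ties keratin to the desmosome, was at 4.43, 4.40 and 4.73 in primed, 4.13, 4.19 and 4.59 in non-primed and 5.01, 3.89 and 6.07 in naive libraries. Its naive libraries enclosed all injected ones, and so did those of the plakophilin Pkp2, at 7.06 to 7.26 in primed, 7.16 to 7.29 in non-primed and 6.16 to 8.18 in naive libraries.

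The cadherin and adherens junction list, which excludes Cdh17, had medians of 0.04 in primed and 0.11 in non-primed libraries over 16 of 19 genes. E-cadherin, encoded by Cdh1 and the defining cadherin of epithelia, was below the filter at 0.57 to 0.80 in primed, 0.49 to 0.63 in non-primed and 0.50 to 0.56 in naive libraries. N-cadherin, encoded by Cdh2 and typical of fibroblasts, was at 12.07 to 12.35 in primed, 12.23 to 12.34 in non-primed and 11.68 to 12.46 in naive libraries. Cdh16, the kidney cadherin and the closest relative of Cdh17 in structure, differed most in the list and in the other direction, by -1.07 in primed and by -1.76 in non-primed libraries (SE 0.93 each), with adjusted p of 0.591 and 0.413 in limma. Its values, 7.59, 4.07 and 4.72 in primed, 5.29, 4.32 and 4.69 in non-primed and 7.79, 6.69 and 5.10 in naive libraries, spread widely within the primed and the naive group. Epcam, the epithelial adhesion molecule, was at 2.49 to 3.10 in primed, 2.71 to 3.17 in non-primed and 2.47 to 2.90 in naive libraries and was not tested.

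The tight junction and polarity list had medians of -0.03 in primed and 0.00 in non-primed libraries over 15 of 28 genes. F11r, the junctional adhesion molecule A, had the largest difference, 0.92 in primed and 0.95 in non-primed libraries (SE 0.49 each), with injected and naive libraries overlapping. Of the 74 tested genes of the 8 lists, only 1 had all 6 injected libraries above the naive ones, as did 6.13% of all tested genes. That gene was Llgl2, a polarity gene, with values of 7.49, 7.13 and 7.22 in primed, 7.30, 7.12 and 7.34 in non-primed and 7.07, 6.81 and 6.55 in naive libraries. Its differences were 0.47 and 0.44 (SE 0.17 each) with adjusted p of 0.233 and 0.270 in limma.

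Of the 11 other aquaporins only Aqp1, a water channel of endothelium and fibroblasts, was tested. It stood at 11.89, 11.15 and 11.13 in primed, 11.33, 11.36 and 10.94 in non-primed and 11.62, 13.51 and 11.49 in naive libraries, with naive 2 far above the rest. The difference was -0.81 in primed and -1.0 in non-primed libraries (SE 0.48 each), with every non-primed library below every naive one. Aqp2, which neighbours Aqp5 on the chromosome, was below the filter at 1.95 to 2.43 in primed, 1.87 to 2.27 in non-primed and 1.74 to 2.11 in naive libraries.

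No regulator on the lists passed the test. Epithelial transcription and splicing factors had medians of -0.28 in primed and -0.13 in non-primed libraries over 7 of 23 genes. Grhl2, a master regulator of epithelial junctions, was at exactly 0 in all 9 libraries, which marks a gene without variation and not a level above negative values. Cdx2, the intestinal factor known to act on Cdh17, lay between -2.15 and -2.13. Mesenchymal transcription factors had medians of -0.01 and -0.03 over 7 of 8 genes, with Snai1 at -0.41 and -0.52 (SE 0.30 each) and overlapping groups. Prrx1, a limb mesenchyme factor named after its values were seen, differed by -0.41 and -0.38 (SE 0.12 each), below naive without overlap, with adjusted p of 0.184 and 0.207 in limma. The list of p53 and its targets, to which Perp would belong, had medians of 0.25 in primed and 0.28 in non-primed libraries. In each comparison 17 of 20 genes were higher and none was called, where 49.8% and 51.7% of all tested genes were higher. Most of the 20 overlapped with naive libraries, and in some the naive libraries lay far apart. Cdkn1a was at 10.90, 10.16 and 8.47 in naive libraries 1 to 3 and at 10.07 to 10.38 in injected ones. Others varied less, such as Bbc3 at 7.70 to 7.75 in naive libraries. How far the count of 17 rests on single naive libraries was not tested. Without overlap, 0 lay above naive in primed and 1 in non-primed libraries, where 8.97% and 11.6% of all tested genes did. Averaged over both comparisons the largest difference of the p53 list was in Pmaip1, the BH3-only gene Noxa, at 0.42 and 0.78 (SE 0.36 each). In primed libraries alone it was in Plk2, a polo-like kinase, at 0.54 (SE 0.28). Trp53 itself differed by -0.12 and -0.19 (SE 0.14 each).

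**Figure D4:**
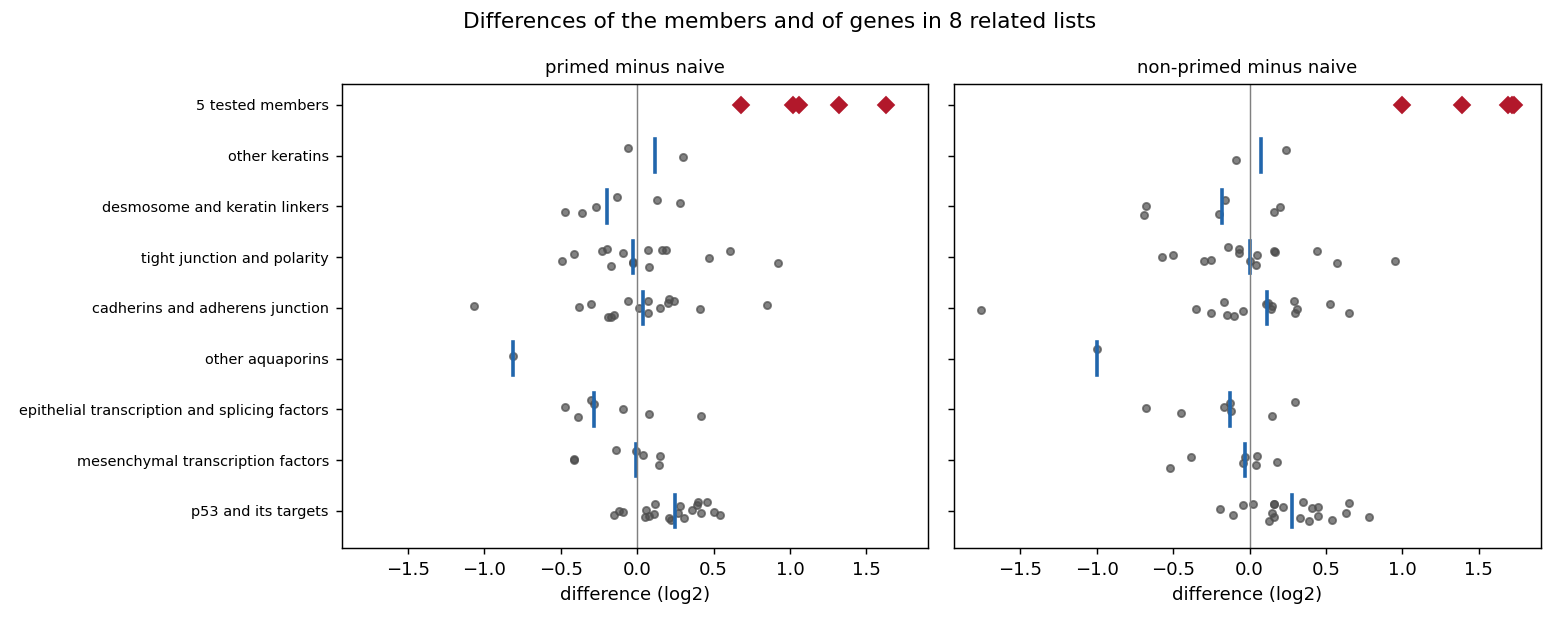
Difference from naive (log2) of the 5 tested members (red diamonds) and of the tested genes of 8 related lists (grey points, with the list median as a blue line), for primed minus naive on the left and non-primed minus naive on the right. The members lie at 0.68 to 1.63 and 1.00 to 1.73, while the list medians lie between -0.81 and 0.25 and between -1.0 and 0.28.

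Most markers of epithelial cell types that the cultures could hold did not reach the filter, and none was called. The part of these markers in the levels of the members was not tested. Of 10 keratinocyte markers, 4 reached the filter and 5, among them Krt5 and Krt14, never exceeded 0. Their summed level (log2 of the sum over the list) was 6.84 to 7.02 in primed, 6.79 to 7.01 in non-primed and 6.67 to 7.89 in naive libraries, and only 1 of the 10 had a higher mean in injected libraries. In every library that sum lay above Krt7 and Krt19, whose highest values were 5.89 and 4.91, without correction for gene length. Of 7 sweat gland markers, 5, including Krt77 and Foxa1, never exceeded 0. The summed level was 5.50 to 6.67 in primed, 6.06 to 6.25 in non-primed and 5.52 to 5.95 in naive libraries, with every non-primed library above every naive one and primed libraries overlapping with naive. Cftr, the chloride channel and 1 of its 2 genes that reached the filter, differed by 0.79 in primed (adjusted p = 0.279) and 0.95 in non-primed libraries (adjusted p = 0.233, limma). Chrm3, a muscarinic receptor and the other gene that reached the filter, differed by -0.66 and -0.54 (SE 0.40 each) with overlap, and the part of this list in the levels of the members was not tested. Of 9 mesothelial markers, a cell type that also makes these keratins, 3 reached the filter and Upk1b, Lrrn4 and Muc16 never exceeded 0. The sum was 5.80 to 6.18 in primed, 5.69 to 6.02 in non-primed and 5.43 to 6.78 in naive libraries. Fibroblast markers summed to 18.59 to 19.65 in primed, 19.27 to 19.46 in non-primed and 18.48 to 19.50 in naive libraries, and all 10 were tested, so the cultures had the label's defining transcripts in every library.

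Macrophage and skeletal muscle markers stood higher on average in injected libraries. All 12 macrophage markers had a higher mean in injected than in naive libraries, none of them called. Their sum was 15.58 to 16.81 in primed, 15.81 to 16.30 in non-primed and 13.08 to 15.77 in naive libraries. The naive libraries were not alike: the sum was 13.44 in naive 1, 15.77 in naive 2 and 13.08 in naive 3. Naive 2 thus lay above 1 injected library, primed 3. In naive 2, Perp was at 7.16, Krt7 at 3.95, Krt19 at 3.36, Aqp5 at 4.70 and Cdh17 at 6.29. All 8 skeletal muscle markers had a higher mean in injected than in naive libraries, although only 4 of them reached the filter. Their sum was 7.42 to 9.48 in primed, 7.84 to 9.27 in non-primed and 7.01 to 7.58 in naive libraries, so primed overlapped with naive libraries. Primed 1 had the lowest muscle sum of the injected libraries and also the lowest Krt7, Krt19, Aqp5 and Cdh17. Perp went otherwise, at 8.92 in primed 1 and lowest in primed 2, at 8.54. The highest muscle sum was in primed 3, where none of the 5 tested members was highest. Schwann cell markers summed to 10.88 to 11.75 in primed, 11.53 to 12.05 in non-primed and 9.43 to 12.10 in naive libraries, with all 6 higher in the injected mean. Endothelial markers summed to 8.85 to 9.21 in primed, 9.10 to 9.28 in non-primed and 8.67 to 10.02 in naive libraries, with 5 of 10 higher. Within that list Vwf, the von Willebrand factor gene, differed by 1.07 and 1.05 (SE 0.25 each) without being called. Egfl7, another endothelial gene, differed by -0.60 and -0.59 (SE 0.18 each), below naive without overlap and also not called, and Pecam1 by -0.31 and -0.47 (SE 0.31 each) with overlap. The part of the macrophage, muscle, Schwann cell and endothelial markers in the levels of the members was not tested.

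**Figure D5:**
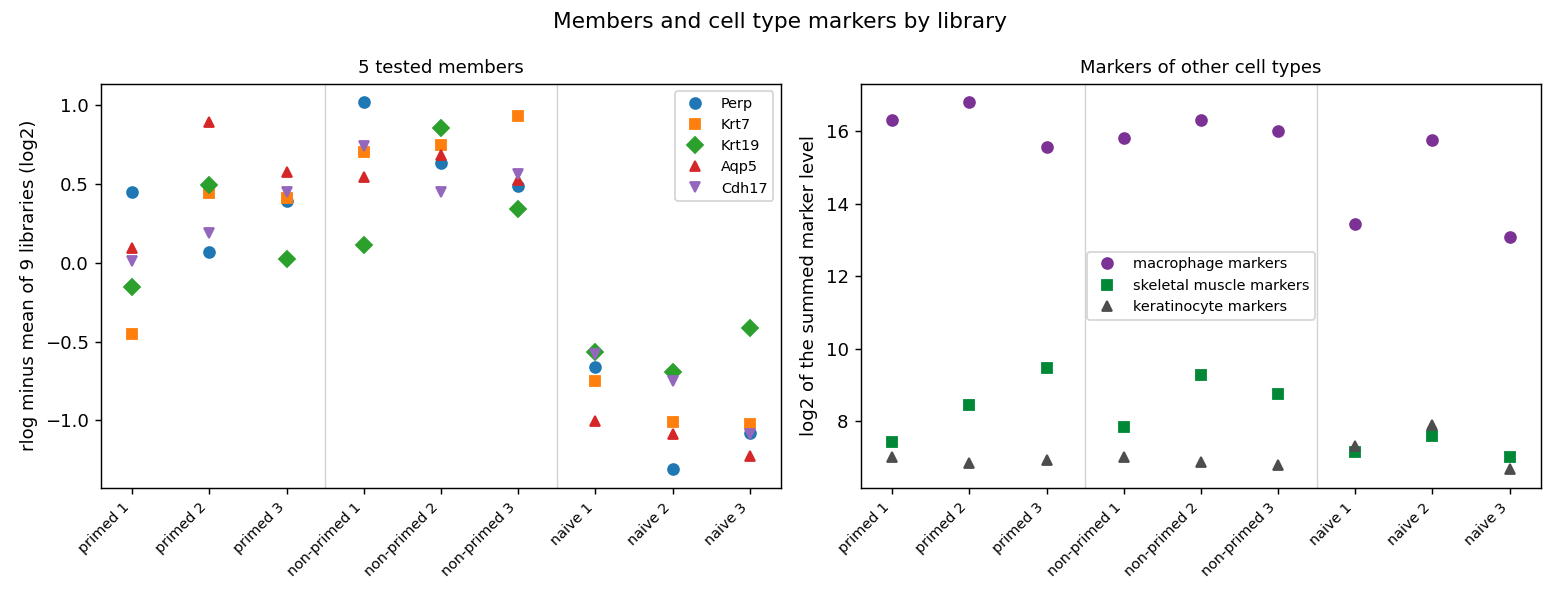
Left, rlog of the 5 tested members minus the mean of each gene over the 9 libraries. Right, log2 of the summed level of macrophage, skeletal muscle and keratinocyte markers in the same libraries. The 5 members are higher in every injected library than in any naive one, and the macrophage sum runs from 15.58 to 16.81 in injected and from 13.08 to 15.77 in naive libraries. The relation of the markers to the members was not tested.

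Some members lay closer in profile to other genes than to any fellow member. Outside genes were far more numerous than members, so a closer one says little about how alike the members are. Likeness was taken as the root mean square (RMS) difference between profiles over the 9 libraries, each centred on its own mean, in log2 units. Among the 5 tested members the closest pairs were Krt7 with Cdh17 (0.26) and Perp with Cdh17 (0.27). The nearly flat Krt8 and Krt18 were closer still to each other (0.13), and Krt8 and Krt18 lay at 0.48 or more from each of the other 5. Perp was nearest to Cdh17, then to Asb5 (0.30), which encodes a SOCS-box protein. Krt7 was nearest to Ptx3 (0.17), the long pentraxin, and Adgrd1 (0.23), an adhesion receptor. Krt19 was nearest to Adamts5 (0.17), an aggrecan-cleaving protease, and Bach2os (0.18). Aqp5 was nearest to Dcaf12l1 (0.19) and Glt1d1 (0.25), and Cdh17 to Lrrc4c and Ccdc125 (0.21 each). The mean profile of all 7 members, which spanned 1.16 log2 units, was nearest to Tmem45a, Zfp941, Ccdc125 and Arsi (0.15 each) and Pgk1 (0.16), the glycolytic enzyme. That mean takes in the nearly flat Krt8 and Krt18, while each of the 5 tested members spanned 1.54 log2 units or more. Its nearest genes thus resemble a flatter profile than that of any tested member. These likenesses are descriptions over 9 libraries in which the step from naive to injected libraries is the main feature.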

How the data were processed

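Libraries were made from RNA of 9 cultures, 3 each of primed, non-primed and naive paws, with a column kit and a stranded mRNA kit, per the labels' protocols. The submitters' processing notes name GRCm38, DESeq2, featureCounts from Subread 1.6.1, STAR 2.5.4a and cutadapt 2.5. The authors deposited rlog values on a log2 scale for 47729 genes. The sources used here give neither the annotation release nor the strand and rlog settings. Depth is unknown, so precision is that of 3 libraries a group. Symbols from the gene name table matched 47224 identifiers.

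Groups came from sample titles. limma 3.58.1 in R 4.3.3 fitted 1 mean per group to all 9 libraries, with a mean-variance trend and 6 residual degrees of freedom, two-sided, with Benjamini-Hochberg adjustment over 15623 varying genes whose mean rlog reached 3 or more; 12134 others were removed. The fit was tested on simulated data. Alternatives were no filter or one of 5, no trend, 2 groups alone, array weights, a robust prior, a replicate block, and each library left out. Members and lists were chosen with earlier results of these data known. Named genes were the members, list genes past the threshold or largest in their list, and the nearest profiles, with other genes for context. Predicted genes are not named. The gene with the largest difference in 1 list is not reported here.

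Same-numbered primed and non-primed libraries deviated together (correlation across genes 0.418, 0.608 and 0.100, each above 0.1 before rounding), so they were taken as possibly paired, though the series text says that a number need not mark a mouse. An unlike-numbered pair, primed 1 with non-primed 3, stood at 0.275, so the value of 0.100 for number 3 is little ground for pairing. Same-numbered pairs with naive libraries ran from -0.16 to 0.151 and unlike-numbered ones reached 0.177, so naive numbers showed no pairing. The replicate block over all 9 libraries joins them by number all the same. No libraries were identical.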

Additional observations from a re-analysis of the deposited data

How the results depend on the processing

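Depth is unknown and differences of weakly expressed genes are understated, which limits Krt8, Krt18 and Krt19 most. In non-primed against naive libraries the 22 genes called became 0 with no filter, 5 without the trend, 7 with the 2 groups alone, 621 with array weights and 13 with a robust prior, and 0 to 355 with 1 library left out. In primed against naive libraries the 16 became 0 with no filter, without the trend or with the 2 groups alone, 733 with array weights, and 0 to 356 with 1 library left out. For primed against non-primed libraries the 0 became 2109 with array weights and stayed 0 in each omission. Among list genes, 0 became 1 (primed against naive) and 8 (primed against non-primed) with array weights, and 0 to 1 in either comparison with naive with 1 library left out. The causes of these moves were not tested.

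Under a replicate block, which also joins naive libraries by number although these showed no pairing, 51 genes were called in primed against naive libraries. There Perp passed (1.32, adjusted p = 0.0365), and in non-primed against naive libraries Krt7 and Cdh17 (adjusted p = 0.0647 each) and Aqp5 (adjusted p = 0.0501) did not. With primed and non-primed libraries alone and the block, an alternative chosen after seeing the data, 0 genes were called, and Perp (-0.41, SE 0.11) and Krt7 (-0.66, SE 0.19) had an adjusted p of 0.485. Aqp5 in primed against non-primed libraries (-0.06) turned to 0.02 with array weights and to 0.15 without primed 1, and ran from -0.25 to 0.15 with 1 library left out. No other difference of a tested member changed direction.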
